A study of Mus musculus with 16 samples.

Results

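The genes described here are 10 components or targets of bone morphogenetic protein (BMP) signalling, taken from the 50600 genes counted in each library. They are the Id genes Id1, Id2, Id3 and Id4, the inhibitory Smads Smad6 and Smad7, the receptor-activated Smad9, the membrane pseudoreceptor Bambi, the secreted antagonist Nog and the type I receptor Bmpr1b. They were chosen by name, as known BMP targets and regulators, with earlier results of these data known. All 10 passed the filter on low counts and were tested.

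The cells were F1 hybrids between 129/Sv (maternal genome) and Cast/EiJ (paternal genome), so that reads covering a strain SNP could be assigned to an allele. Embryonic stem cells were differentiated into neural progenitor cells (NPCs), which were grown with EGF and FGF2 at 10 ng/mL each, and clones were picked by hand after limiting dilution. For astrocytes, NPC clones were moved for 48 h to medium with BMP4 at 10 ng/mL and FGF2 at 1 ng/mL. RNA-seq was performed on 16 libraries, each from a single clone. The 5 astrocyte libraries were made from poly(A)-enriched RNA of the female clones 129, C2 and G4 and the male clones mC3 and mE6. The 3 poly(A)-enriched NPC libraries came from the female clone F5 and the male clones mG2 and mG6. The other 8 NPC libraries, 2 for each of the male clones Ch3, Ch5, Ch7 and Ch8, were made after ribosomal RNA depletion. Clone 129 is a clone name and is written as such, and "129 allele" or "129 reads" always means the 129/Sv genome.

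No clone had both an astrocyte and an NPC library here, so clone and cell state cannot be told apart, and neither can BMP4, the lower FGF2 and the EGF that is named for the NPC medium alone. The astrocyte titles carry the codes A234 (129, mC3 and mE6) or B129 (C2 and G4) and the poly(A) NPC titles B145, whose meaning the labels do not give. Reads on genes ranged from 78257443 to 93963293 in astrocytes, from 69925081 to 105892734 in poly(A) NPCs and from 20871111 to 30920672 after ribosomal RNA depletion. Of the 9 astrocyte markers listed, Gfap, Aqp4 and Slc1a2 were called higher in astrocytes, Aldh1l1 lower and 5 neither. Gfap ran from 61.9 CPM in C2 to 2092 CPM in clone 129. Of 6 NPC markers tested, Nes and Egfr were called lower, 0 higher and 4 (Sox2, Pax6, Vim and Fabp7) neither. All 6 proliferation markers (Mki67, Top2a, Ccnb1, Cdk1, Pcna and Mcm2) were called lower. Their summed level lay between 69.3 and 112 CPM in astrocytes and between 1378 and 1662 CPM in poly(A) NPCs. Of 6 fibroblast markers 1 (Col1a1) was called higher and 0 lower (median log2 fold change 0.41), and of 7 neuronal markers 2 (Snap25 and Syn1) were called higher and 0 lower (median -0.23). The part of these changes in the results below was not tested, and in such bulk samples fewer cells of a type and less RNA per cell cannot be told apart.

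BMP ligands bind pairs of type I and type II serine/threonine kinase receptors, which phosphorylate Smad1, Smad5 and Smad9; these join Smad4 and move to the nucleus. Id genes are the best known direct targets, and their proteins hold back basic helix-loop-helix (bHLH) factors by binding E proteins without binding DNA. Smad6, Smad7, Bambi and Nog dampen the same pathway at the receptor, at the membrane or outside the cell, and in neural progenitors BMP4 is known to drive exit from the cell cycle and astrocytic differentiation.

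The promoters of 3 Id genes and of Smad9 are shown, each of which held a match to a sequence named below. These genes were called higher in the comparison below. So was Smad6, whose entry held no match and is not shown. Each is the 250 bases before the start annotated for its promoter entry, written 5′ to 3′ on the strand of the gene. Entries came from RefSeq on GRCm38.p6, where 6 of the 10 genes had one. The Smad9 window ends at 54755581, past the gene start of 54755455 given below, so it lies partly within the gene. Capitals mark GGCGCC, a GC-rich sequence known to bind Smad1 and Smad5, and CAGAC on either strand, which holds the box known to bind Smad4.

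Id2, chr12:25096093-25096342, minus strand: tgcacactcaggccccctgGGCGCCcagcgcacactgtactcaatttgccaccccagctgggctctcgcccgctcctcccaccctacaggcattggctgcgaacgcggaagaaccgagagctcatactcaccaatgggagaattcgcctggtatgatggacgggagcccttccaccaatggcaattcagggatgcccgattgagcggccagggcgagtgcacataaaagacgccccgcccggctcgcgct
Id3, chr4:136143572-136143821, plus strand: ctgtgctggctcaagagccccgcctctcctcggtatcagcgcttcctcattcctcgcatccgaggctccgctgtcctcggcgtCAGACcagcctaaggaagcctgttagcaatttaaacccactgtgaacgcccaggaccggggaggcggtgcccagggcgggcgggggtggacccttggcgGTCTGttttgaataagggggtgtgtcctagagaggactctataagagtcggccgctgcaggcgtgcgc
Id4, chr13:48260866-48261115, plus strand: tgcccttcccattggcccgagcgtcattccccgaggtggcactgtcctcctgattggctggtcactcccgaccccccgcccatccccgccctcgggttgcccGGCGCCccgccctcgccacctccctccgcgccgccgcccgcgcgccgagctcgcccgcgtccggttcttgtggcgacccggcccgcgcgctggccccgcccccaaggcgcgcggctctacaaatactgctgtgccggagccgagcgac
Smad9, chr3:54755332-54755581, plus strand: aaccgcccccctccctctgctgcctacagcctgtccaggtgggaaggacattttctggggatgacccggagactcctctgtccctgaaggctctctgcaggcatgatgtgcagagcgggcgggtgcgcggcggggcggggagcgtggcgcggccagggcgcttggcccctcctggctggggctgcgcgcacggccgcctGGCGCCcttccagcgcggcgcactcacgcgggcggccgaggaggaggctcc

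GGCGCC began 231 bases before the start of the entry in Id2, 148 in Id4 and 51 in Smad9. In Smad9 this position lies past the gene start given below. CAGAC began 167 and 68 bases before the start of the entry in Id3. Neither sequence was found in the same stretch of Smad6, and CAGAC was found in 2 of 3 windows of Bmpr1b. Searched on both strands in the same way, GGCGCC was present in 9.59% and CAGAC in 42.2% of 32851 RefSeq promoters. No window above held both sequences, so matches of one did not overlap the other. A match is a stretch of letters and was not tested as a binding site.

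To determine which of these genes were raised in astrocytes, all reads per gene were compared between the 5 astrocyte and the 3 poly(A) NPC clones with edgeR's quasi-likelihood test, adjusted over 18192 genes (Benjamini-Hochberg). Of the 10 genes, 9 were called higher and 0 lower at an adjusted p under 0.05, where 13.0% of all genes tested were called higher. In 9 of the 10, every astrocyte library also lay above every poly(A) NPC library, which held for 15.2% of the genes tested. The exception on both counts was Bmpr1b. The median log2 fold change of the 10 genes was 4.47, against 0.08 over all genes tested. Levels are given as CPM, in which the reads on a gene are scaled by the reads on all genes of the library, and as they are not divided by length they are compared only within a gene.

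**Figure D1:**
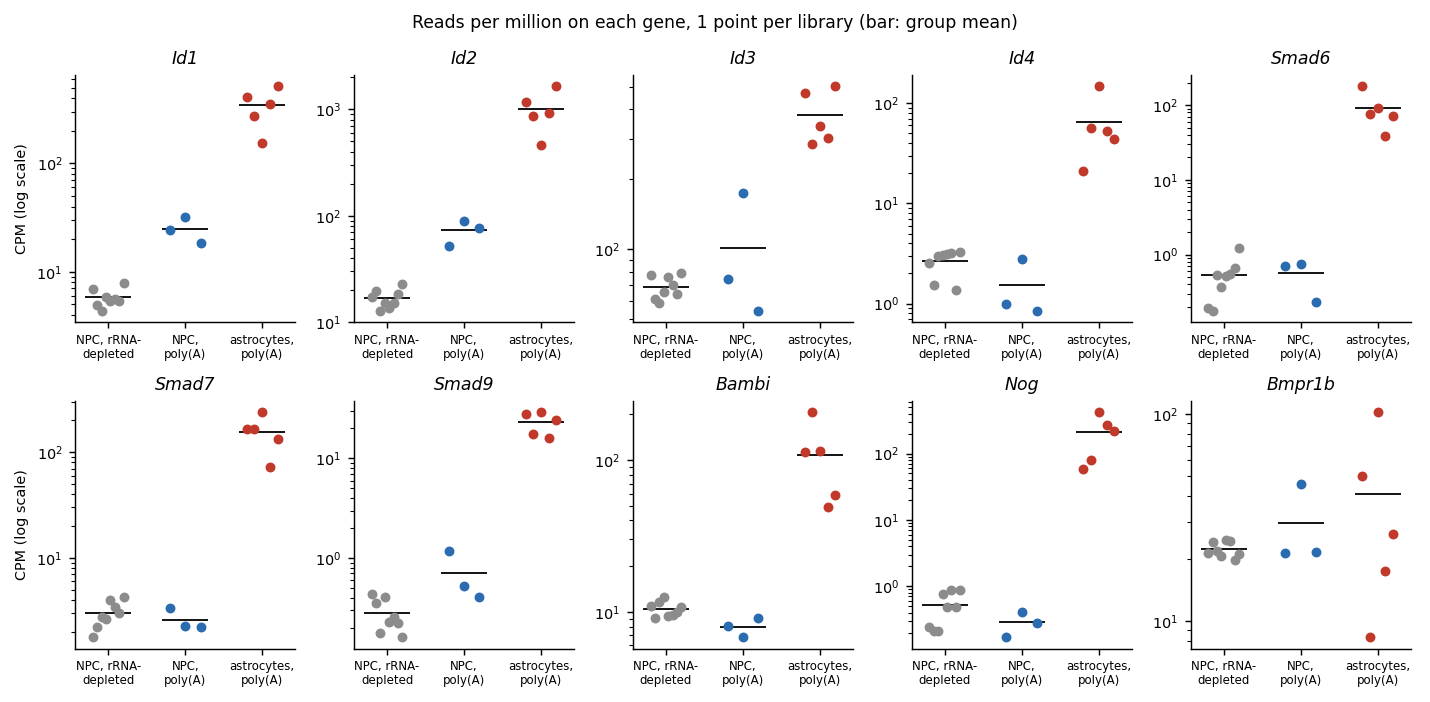
Level of each gene in CPM on a log axis, with 1 point per library and a bar at the group mean, for ribosomal RNA-depleted NPCs (8 libraries of 4 clones), poly(A) NPCs (3 clones) and astrocytes (5 clones). For every gene except Bmpr1b the 5 astrocyte points lie above all NPC points, with the narrowest gap for Id3 (286 against 175 CPM).

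The Id genes encode the inhibitors of bHLH factors. Id1, on chromosome 2 (152736251 to 152737410, GRCm38.p6), had 410.4 CPM in clone 129, 274 in C2, 155 in G4, 355 in mC3 and 522 in mE6, against 24.3 in F5, 32.1 in mG2 and 18.5 in mG6. The lowest astrocyte clone was thus 4.85 times the highest poly(A) NPC clone, and the log2 fold change was 3.84 (SE 0.43, adjusted p = 0.000789). Id2, on chromosome 12 (25093799 to 25096092), had 1183, 866, 461, 923 and 1669.6 CPM in the same order of astrocyte clones, against 51.8, 89.2 and 77.5 CPM in F5, mG2 and mG6. Its log2 fold change of 3.86 (SE 0.46, adjusted p = 0.00112) was close to that of Id1, and G4 was the lowest and mE6 the highest astrocyte clone for both genes.

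Id3, on chromosome 4 (136143822 to 136145392), changed less. It had 471 CPM in clone 129, 286 in C2, 339.9 in G4, 301 in mC3 and 506 in mE6, and 74.5, 175 and 54.4 CPM in F5, mG2 and mG6. The NPC clone mG2 came within 1.63-fold of the lowest astrocyte clone, and the log2 fold change was 1.98 (SE 0.40, adjusted p = 0.0102). This was the only one of the 9 calls lost under an alternative of this fit. With the male clones alone the log2 fold change was 1.91 (adjusted p = 0.0764), and with the B129 astrocytes alone it was 1.75 (adjusted p = 0.0558).

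Id4, on chromosome 13 (48261116 to 48266028), was nearly silent in NPCs, with 1.00, 2.77 and 0.844 CPM in F5, mG2 and mG6. Astrocytes had 21.0 CPM in clone 129, 56.2 in C2, 149 in G4, 52.8 in mC3 and 44.3 in mE6, a 7.11-fold range in which G4 was the highest. The log2 fold change was 5.49 (SE 0.83, adjusted p = 0.00318), with 4.88 without G4, 6.17 without mG2 and 4.83 with the male clones alone, and it was called in each. The clone with the least Id1 and Id2 therefore had the most Id4.

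Smad6 and Smad7 encode inhibitory Smads, which act as feedback inhibitors by binding activated receptors. Smad6, on chromosome 9 (63953076 to 64022085), had 181 CPM in clone 129, 75.4 in C2, 91.0 in G4, 38.6 in mC3 and 70.9 in mE6, and 0.699, 0.758 and 0.232 CPM in the poly(A) NPC clones F5, mG2 and mG6. Its lowest astrocyte clone lay 50.9-fold above its highest poly(A) NPC clone, for a log2 fold change of 7.38 (SE 0.71, adjusted p = 0.000365). Smad7, on chromosome 18, had 168, 167, 239.8, 72.0 and 133 CPM in clones 129, C2, G4, mC3 and mE6, and 3.35, 2.25 and 2.20 CPM in F5, mG2 and mG6. The groups were again far apart, with a log2 fold change of 5.96 (SE 0.49, adjusted p = 0.000157), and mC3 was the lowest astrocyte clone for both genes.

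Smad9, on chromosome 3 (54755455 to 54801662), encodes one of the Smads that BMP receptors activate. It had 27.7 CPM in clone 129, 17.7 in C2, 29.2 in G4, 16.2 in mC3 and 24.4 in mE6, and 1.18, 0.529 and 0.404 CPM in F5, mG2 and mG6. Its astrocyte levels varied least of the 10 genes (coefficient of variation 25.5% over 5 clones), and the log2 fold change was 5.07 (SE 0.49, adjusted p = 0.000365).

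Bambi, on chromosome 18, encodes a pseudoreceptor that lacks a kinase domain and limits signalling at the membrane. It had 112 CPM in clone 129, 207 in C2, 115 in G4, 48.7 in mC3 and 58.4 in mE6, against 8.03, 6.79 and 9.04 CPM in F5, mG2 and mG6. The 3 female astrocyte clones lay above the 2 male ones. The log2 fold change was 3.83 (SE 0.55, adjusted p = 0.0025). It was 2.82 (adjusted p = 0.00795) with the male clones alone and 3.37 (adjusted p = 0.00276) with sex as a covariate.

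Nog, on chromosome 11 (89300638 to 89302559), encodes Noggin, which binds BMP ligands outside the cell. It showed the largest change of the 10 genes and ranked 22nd of the 18192 genes by log2 fold change. Astrocytes had 58.8 CPM in clone 129, 80.5 in C2, 421 in G4, 267 in mC3 and 216 in mE6, whereas F5, mG2 and mG6 had 0.170, 0.415 and 0.281 CPM. The log2 fold change was 9.58 (SE 1.00, adjusted p = 0.000561), and even the lowest astrocyte clone was 142-fold above the highest poly(A) NPC clone. Within astrocytes the level varied 7.16-fold between clones.

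Bmpr1b, on chromosome 3 (141837135 to 142169585), encodes a type I receptor. It was the only one of the 10 genes that was not called. Clones 129, C2, G4, mC3 and mE6 had 50.1, 8.32, 102, 17.5 and 26.4 CPM, and F5, mG2 and mG6 had 21.3, 46.0 and 21.4 CPM, so the groups overlapped, with astrocyte clones both above and below all NPC clones. The astrocyte clones spread over a 12.3-fold range, the widest of the 10 genes, and the log2 fold change was 0.53 (SE 0.73, adjusted p = 0.635). Its sign rested on 1 clone, since without G4 the log2 fold change was -0.23 (adjusted p = 0.806), and with the male clones alone it was -0.53 (adjusted p = 0.382).

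The ribosomal RNA-depleted NPC libraries were described beside these and not used in the test, because preparation and clone cannot be told apart in them. Id1 lay between 4.34 and 7.85 CPM in these 8 libraries and Id2 between 12.7 and 22.9 CPM, all below the 3 poly(A) NPC clones. Id3 (58.6 to 79.3 CPM), Id4 (1.38 to 3.28), Smad6 (0.176 to 1.24), Smad7 (1.77 to 4.29) and Nog (0.212 to 0.881) overlapped the poly(A) NPC range. Bmpr1b (19.6 to 24.5 CPM) fell within or just below it. For Bambi these libraries (9.13 to 12.5 CPM) lay above all poly(A) NPC clones, and for Smad9 the range was 0.160 to 0.431 CPM. The 9 genes called higher had every astrocyte library above all of these libraries as well, from 3.60-fold between the closest libraries for Id3 to 66.8-fold for Nog. The share of all genes separated in this way is not given here. Against these clones, where preparation also differed, 6049 of 19257 genes were called higher.

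To ask whether both alleles responded, Cast reads and 129 reads were compared separately, scaled by the all-read library sizes so that both alleles stay on the same scale. With Cast reads 8 of the 10 genes were called higher and 0 lower, where 11.5% of 13360 genes were called higher. With 129 reads 9 were called higher and 0 lower, where 13.1% of 13502 genes were called higher. Id1, Id2, Id4, Smad6, Smad7, Smad9, Bambi and Nog were thus called higher from both alleles. With library sizes taken from each allele's own reads the numbers of these genes called stayed 8 and 9, while the calls over all genes moved from 1540 higher and 1089 lower to 1211 and 1429 for Cast reads, and from 1774 and 1242 to 1468 and 1588 for 129 reads.

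**Figure D2:**
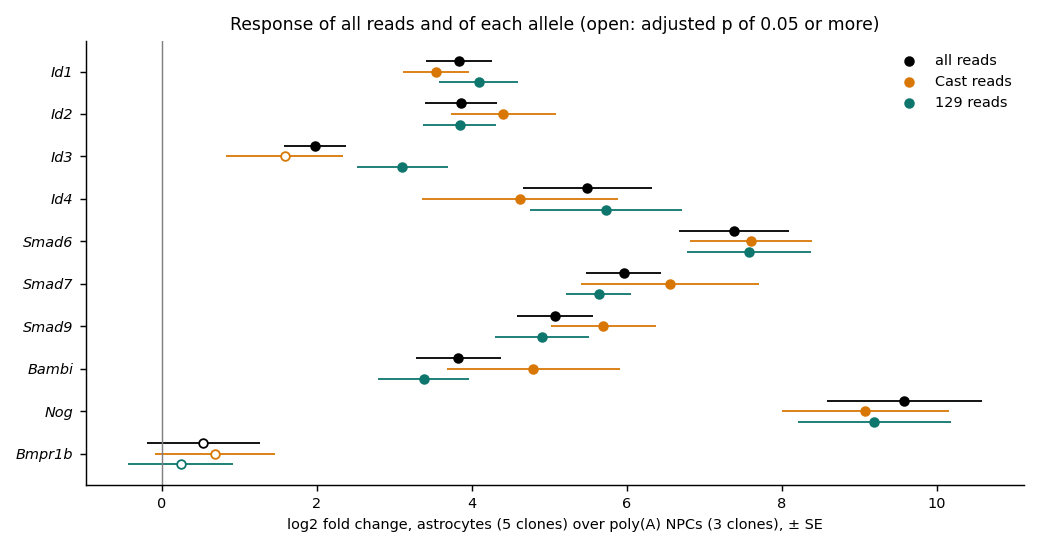
Log2 fold change of astrocytes (5 clones) over poly(A) NPCs (3 clones) with its standard error, for all reads, Cast reads and 129 reads of each gene. Filled points have an adjusted p under 0.05; the open points are the Cast reads of Id3 (1.58) and the 3 values of Bmpr1b (0.53, 0.69 and 0.24).

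Id1 is given as an example. Its Cast CPM (Cast reads scaled by the all-read library size) were 29.0, 23.5, 15.3, 31.5 and 50.7 in clones 129, C2, G4, mC3 and mE6, against 2.59, 3.29 and 2.18 in F5, mG2 and mG6. Its 129 CPM, scaled likewise, were 53.2, 25.3, 14.9, 39.0 and 62.3, against 2.34, 2.65 and 2.09. Each allele alone separated the groups, with log2 fold changes of 3.54 (SE 0.43, adjusted p = 0.00203) for Cast and 4.09 (SE 0.51, adjusted p = 0.00187) for 129. For Id2 they were 4.41 (SE 0.67) and 3.84 (SE 0.47).

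Smad9, Id4 and the inhibitors of the pathway were called higher from both alleles too. The log2 fold changes for Cast and 129 reads were 7.60 (SE 0.79) and 7.58 (SE 0.81) for Smad6, and 9.08 (SE 1.07) and 9.20 (SE 0.99) for Nog. They were 6.56 (SE 1.14) and 5.64 (SE 0.42) for Smad7, and 5.70 (SE 0.68) and 4.91 (SE 0.60) for Smad9. For Id4 the values were 4.62 (SE 1.27, adjusted p = 0.0396) and 5.73 (SE 0.98, adjusted p = 0.00649), from 5, 25 and 2 Cast reads in F5, mG2 and mG6, and the Cast call of Id4 was lost without C2, G4, mC3, F5 or mG6 (adjusted p = 0.0567 to 0.121). For Bambi they were 4.80 (SE 1.12, adjusted p = 0.0242) and 3.38 (SE 0.59, adjusted p = 0.00698), and the Cast call was lost without F5 (adjusted p = 0.0716) or mG6 (adjusted p = 0.0622). The folds of Smad6 and Nog also rested on few NPC reads. In F5, mG2 and mG6, Smad6 had 8, 1 and 4 Cast reads and 6, 5 and 1 from the 129 allele. Nog had 3, 4 and 5 Cast reads and 8, 10 and 10 from the 129 allele. Smad7 had 0 Cast reads in mG2, among 27 allele-specific reads.

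Id3 was called from the 129 allele, with a log2 fold change of 3.10 (SE 0.59, adjusted p = 0.00961), and not from the Cast allele, with 1.58 (SE 0.75, adjusted p = 0.179). Only 2.15% of its reads in the 8 poly(A) libraries were allele-specific, the smallest share of the 10 genes, so its alleles are measured less precisely than its total. The Cast CPM were 4.37, 2.89, 0.823, 1.97 and 7.01 in clones 129, C2, G4, mC3 and mE6, and 0.661, 2.27 and 0.660 in F5, mG2 and mG6. G4 and mC3 were below mG2, so the groups overlapped. Without G4 the Cast log2 fold change was 1.83 (adjusted p = 0.0988), and without G4 and mG2 it was 2.64 (adjusted p = 0.0669).

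A call on one allele and not on the other does not show that the alleles differ, so the difference of the allelic responses was tested directly, as the interaction of allele and cell state with the library as a block. Of the 8 genes that had 20 or more allele-specific reads in 6 or more of the 8 libraries, 0 were called by edgeR, where 0.487% of 12125 genes were called in either direction. At an unadjusted p under 0.05 edgeR gave 1 of them, Id1, whose Cast and 129 responses differed by -0.48 (SE 0.20, adjusted p = 0.359) on the log2 scale, beside 1640 of the 12125 genes. The log2 differences (Cast minus 129) were 0.55 (SE 0.24) for Id2, -1.76 (SE 0.82) for Id3, -0.94 (SE 0.48) for Id4, 1.20 (SE 1.15) for Smad7, 0.64 (SE 0.83) for Smad9, 2.14 (SE 1.20) for Bambi and 0.26 (SE 0.31) for Bmpr1b. These standard errors leave room for differences between the alleles of more than 2-fold in Id2, Id3, Id4, Smad7, Smad9 and Bambi. With a minimum of 10 reads, Smad6 (0.02) and Nog (-0.15) could be tested too and were not called.

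The allelic ratio, given as the percentage of Cast among allele-specific reads (at least 20 reads, with 95% Wilson intervals that cover counting error only), was then read clone by clone. It was set beside the median ratio of all other genes within 10 Mb, because several clones had whole regions away from 50%. A ratio was called monoallelic below 15% or above 85%, biallelic between 35 and 65%, and biased elsewhere. Of 97 ratios of these genes over the 12 clones, 62 were biallelic, 29 biased and 6 monoallelic. All 6 monoallelic ratios lay where the surrounding genes had a median outside 40 to 60%.

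**Figure D3:**
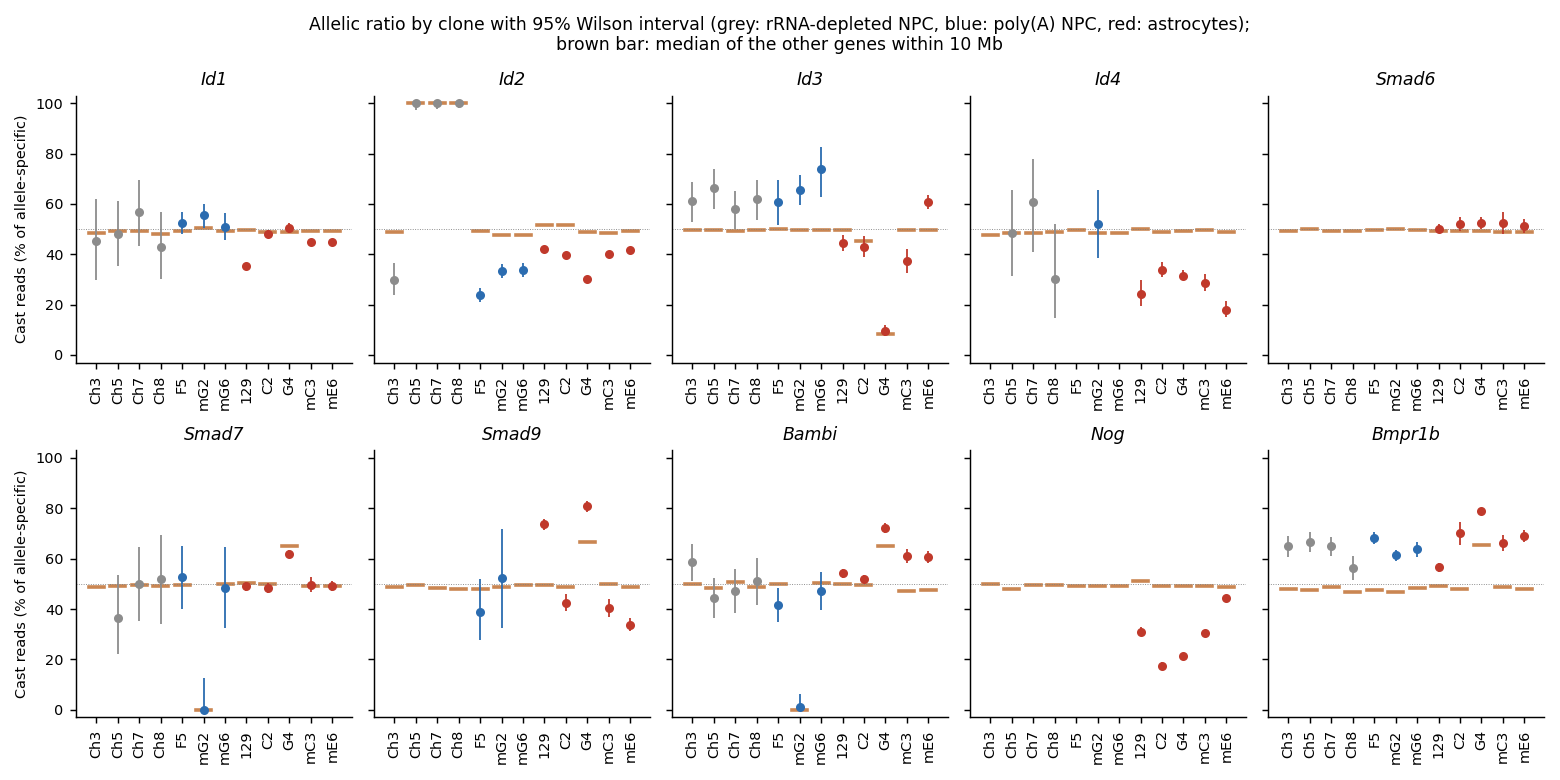
Percentage of Cast reads for each gene and clone with its 95% Wilson interval, coloured by group, and a brown bar at the median of the other genes within 10 Mb. Points are missing below 20 allele-specific reads. Id2 in Ch5, Ch7 and Ch8 (100%), Smad7 and Bambi in mG2 (0% and 1.14%) and Id3 in G4 (9.47%) lie on the brown bar of their region.

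Id2 was at 100% Cast in Ch5 (148 of 148 reads), Ch7 (150 of 150) and Ch8 (200 of 200), whereas Ch3 was at 29.9% (interval 24.0 to 36.5%). The median of the genes around it was also 100% in Ch5, Ch7 and Ch8, and it was 48.7% in Ch3. The reads of the region, each clone set against the other 3 of the same preparation, differed by log2 values between -0.05 and 0.10 in Ch5, Ch7 and Ch8, and by -0.09 in Ch3, so the clone with both alleles had no more reads there. In the other clones Id2 leaned to the 129 allele, at 23.8% in F5, 33.5% in mG2 and 33.8% in mG6, and at 42.2% in clone 129, 39.7% in C2, 30.1% in G4, 40.1% in mC3 and 41.9% in mE6. Both groups lay below their surrounding genes, the difference running from -18.6 to -7.29 points in astrocytes and from -25.6 to -13.9 points in poly(A) NPCs.

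**Figure D4:**
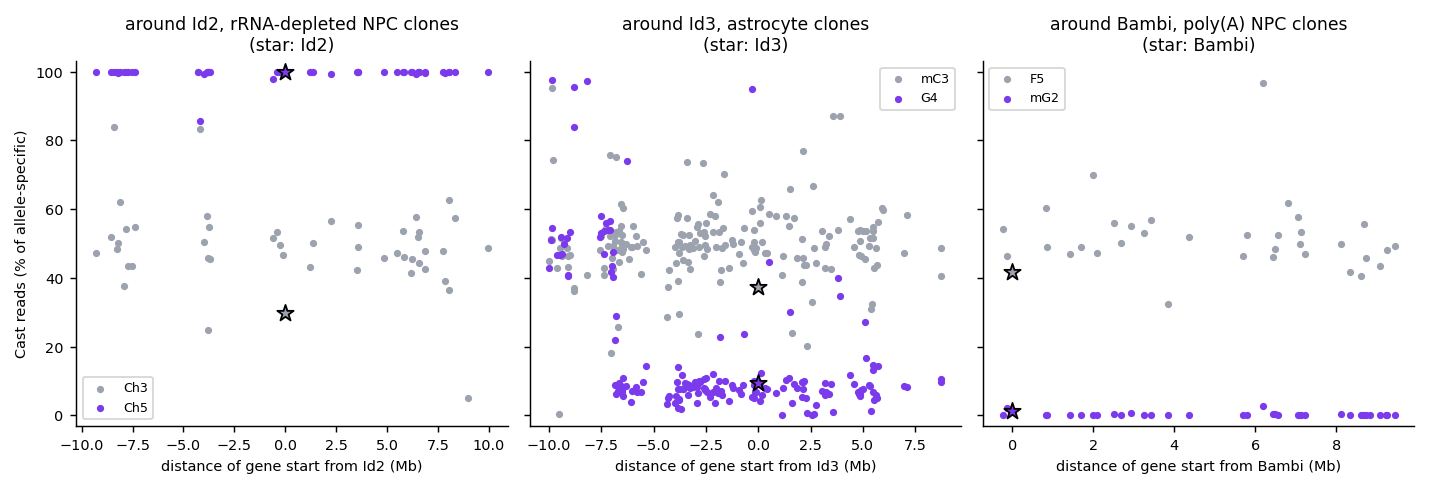
Percentage of Cast reads of single genes against their distance from Id2, Id3 and Bambi in Mb, each for a clone in which the region was unbalanced (purple) and one in which it was not (grey), with a star at the named gene. In Ch5 around Id2 and in mG2 around Bambi the genes shown lie near 100% and 0%, and in G4 most genes on the right and many on the left of Id3 lie near 10%, as do the stars.

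Among the poly(A) NPC clones, mG2 stood apart on chromosome 18. In mG2 Bambi was at 1.14% (1 of 88 reads) and Smad7 at 0% (0 of 27 reads), and the genes around them had medians of 0.032% and 0.091%, with reads within a log2 value of 0.02 of the other poly(A) NPC clones. F5 and mG6 were at 41.6% and 47.2% for Bambi and at 52.6% and 48.5% for Smad7. In the ribosomal RNA-depleted clones Ch3, Ch5, Ch7 and Ch8 Bambi was at 58.8, 44.3, 47.1 and 51.0%, so that Ch3 lay above astrocyte clones 129 and C2. In astrocytes Bambi was at 54.2, 51.9, 72.1, 61.1 and 60.7% and Smad7 at 49.0, 48.5, 61.7, 49.6 and 49.2% in clones 129, C2, G4, mC3 and mE6. G4 was the highest for both, with 65.2% in the genes around Smad7 and reads of both regions above the other astrocyte clones by a log2 value of 0.47.

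In G4 the genes around Id3 were at 8.42%, with reads lower than in the other astrocyte clones by a log2 value of -0.86, and Id3 was at 9.47% (interval 7.51 to 11.9%). Even so, the total level of Id3 in G4 (339.9 CPM) lay between those of the other astrocyte clones. Clones 129, C2, mC3 and mE6 were at 44.5, 43.0, 37.2 and 60.7%, and F5, mG2 and mG6 at 60.9, 65.7 and 74.0%. All 5 astrocyte clones were below all 3 poly(A) NPC clones, although mE6 was below F5 by less than the width of their intervals. The ribosomal RNA-depleted clones Ch3, Ch5, Ch7 and Ch8 were at 61.2, 66.4, 57.8 and 61.8%, so mE6 was above Ch7.

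Other ratios lay away from the median of their surrounding genes. Smad9 was at 73.8% (interval 71.5 to 75.9%) in clone 129, where the surrounding genes were at 49.3%, and at 80.9% in G4, where they were at 66.4% and had reads above the other astrocyte clones by a log2 value of 0.46. It was at 42.5% in C2, 40.3% in mC3 and 33.8% in mE6, so the favoured allele differed between clones. Nog leaned to the 129 allele in all 5 astrocyte clones, at 31.1, 17.4, 21.1, 30.6 and 44.4% in clones 129, C2, G4, mC3 and mE6, with surrounding genes between 48.7 and 51.2%. Id4 did the same at 24.3, 33.9, 31.5, 28.6 and 18.1%. Smad6 stayed between 50.2 and 52.4% in all 5. Id1 was at 35.3% (interval 34.2 to 36.4%) in clone 129, where the surrounding genes were at 49.5%. In the other astrocyte clones Id1 lay between 44.7 and 50.5%. Bmpr1b leaned to Cast in every clone with a balanced surrounding region, from 56.2% in Ch8 to 70.0% in C2. In G4 it was at 78.8%. The genes around it there were at 65.2% and had reads above the other astrocyte clones by a log2 value of 0.33.

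Ratios were compared between the groups for the 6 genes with at least 20 reads in all 8 poly(A) libraries, by an exact two-sided permutation test over clones, whose 56 splits allow no p below 0.0357. Id1 went from 53.0% ± 2.25 (SD, n = 3) in NPCs to 44.7% ± 5.82 (SD, n = 5) in astrocytes, exact p = 0.0357. Id3 went from 66.8% ± 6.63 to 39.0% ± 18.7, with the same exact p of 0.0357, and the mean of Bambi was 30.02 points higher in astrocytes (SD 7.87) than in NPCs (SD 25.1), again with an exact p of 0.0357. For Id2 (difference 8.45 points, exact p = 0.107), Smad7 (17.9 points, exact p = 0.429) and Bmpr1b (3.68 points, exact p = 0.5) the test gave larger p. Adjusted over the 10959 genes tested, 0 genes reached 0.05 (1538 had an unadjusted p under 0.05), and the adjusted p of these 6 genes ranged from 0.254 to 0.809. An adjusted p under 0.05 would have needed most of the genes tested to be at the smallest possible p. No conclusion is therefore drawn from this 0.

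For Bambi and Smad7 these differences were smaller without the clones in which their regions were unbalanced, and that of Id3 stayed negative. Without G4 the difference of Id3 was -20.5 points, against -27.9 with all clones (4 against 3 clones, exact p = 0.0571, the smallest possible). Without G4 and mG2 the difference of Bambi was 12.6 points, with all 4 astrocyte clones above both poly(A) NPC clones (exact p = 0.133, the smallest that 4 against 2 clones allow). That of Smad7 was -1.49 points in the same clones (exact p = 0.667). Likewise, the log2 difference of the allelic responses of Bambi was 0.92 without mG2 and 0.73 without G4 and mG2, against 2.14 with all clones, and that of Smad7 was 0.06 without mG2.

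The rest of the pathway was read from lists of genes, beside a median log2 fold change of 0.08 and 13.0% of genes called higher over all genes tested. Among 13 BMP ligand genes, 6 passed the filter, with Bmp5 and Bmp6 called higher and Bmp3 lower (median log2 fold change 1.00). Both of those called higher were low, Bmp5 at 21.97 CPM in clone 129 and between 0.224 and 4.17 CPM in the other astrocyte clones, and Bmp6 at 1.39 CPM or less. Transcripts of Bmp4, the ligand added to the medium, were at 0.0767 CPM or less in astrocytes, and the gene did not pass the filter.

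Of 12 receptors and co-receptors 5 were called higher and 0 lower (median 0.67). Bmpr2, the main type II BMP receptor, rose from 325 ± 109 CPM (SD, n = 3) to 1739 ± 268 CPM (SD, n = 5), a log2 fold change of 2.48 (SE 0.32, adjusted p = 0.00154). Bmpr1a, a type I receptor closely related to Bmpr1b, rose from 214 ± 34.1 to 856 ± 156 CPM, by 2.05 (SE 0.21, adjusted p = 0.000495). Neo1, a receptor for the co-receptors of the RGM family, rose by 1.93 (SE 0.28), and Acvrl1 by 2.61 (SE 0.75) from low levels. Unlike Bmpr1b, Bmpr1a and Bmpr2 had every astrocyte clone above every poly(A) NPC clone.

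Of 13 extracellular inhibitors and modulators tested 5 were called higher and 1 lower (median 1.03). Sost and Grem1, both secreted antagonists, were between 0.422 and 18.8 CPM and between 0.0340 and 6.82 CPM in astrocytes, against 4 and 9 reads in all in the 3 NPC clones, and Grem1 in clone 129 (0.0340 CPM) lay within the NPC range. Nbl1 rose by 1.86 (SE 0.44). Sostdc1 was called lower, at 0.652 CPM or less in astrocytes and at 17.4, 0.272 and 26.8 CPM in F5, mG2 and mG6, so that mC3 was above mG2.

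Of 17 Smad transducers and intracellular regulators 3 were called higher and 1 lower (median 0.22). Zfp423, a zinc finger cofactor of BMP-activated Smads, rose from 23.8 ± 1.16 to 120.4 ± 30.4 CPM, by 2.38 (SE 0.22, adjusted p = 0.000283). Skil and Ski, which encode corepressors of Smad complexes, rose by 2.28 (SE 0.27) and 1.53 (SE 0.24). Smad5 fell from 338 ± 53.7 to 125 ± 29.4 CPM (log2 fold change -1.39, SE 0.21, adjusted p = 0.00326). Smad1 (-0.16, SE 0.18) and Smad4 (0.23, SE 0.23) were not called, so of the 3 Smads that BMP receptors activate, Smad9 was called higher, Smad5 lower and Smad1 neither.

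Of 14 other BMP-responsive transcription factor genes tested 5 were called higher and 0 lower (median 3.22). Atoh8 rose from 8.45 ± 5.07 to 78.5 ± 22.2 CPM, by 3.29 (SE 0.54, adjusted p = 0.00425), and Hey1 by 3.15 (SE 0.61). Msx1, a homeobox gene, rose by 4.73 (SE 0.90), and Runx2, a regulator of bone formation, by 3.83 (SE 1.09). Dlx3 was between 0.102 and 4.84 CPM in astrocytes, against 1 read in all in the 3 NPC clones.

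The partners of Id proteins went the other way. Of 7 E protein and proneural bHLH genes tested, 0 were called higher and 4 lower (median -1.08), where all genes had 2360 higher and 2284 lower calls. The E protein genes Tcf12 and Tcf3 fell by 1.44 (SE 0.21, adjusted p = 0.00269) and by 0.76 (SE 0.18, adjusted p = 0.0182) on the log2 scale, and Tcf4 gave -0.56 (SE 0.29, adjusted p = 0.193). Olig2 fell from 781 ± 162 to 139.9 ± 81.8 CPM, and Neurod1 from 5.98 ± 1.80 to 0.414 ± 0.303 CPM.

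**Figure D5:**
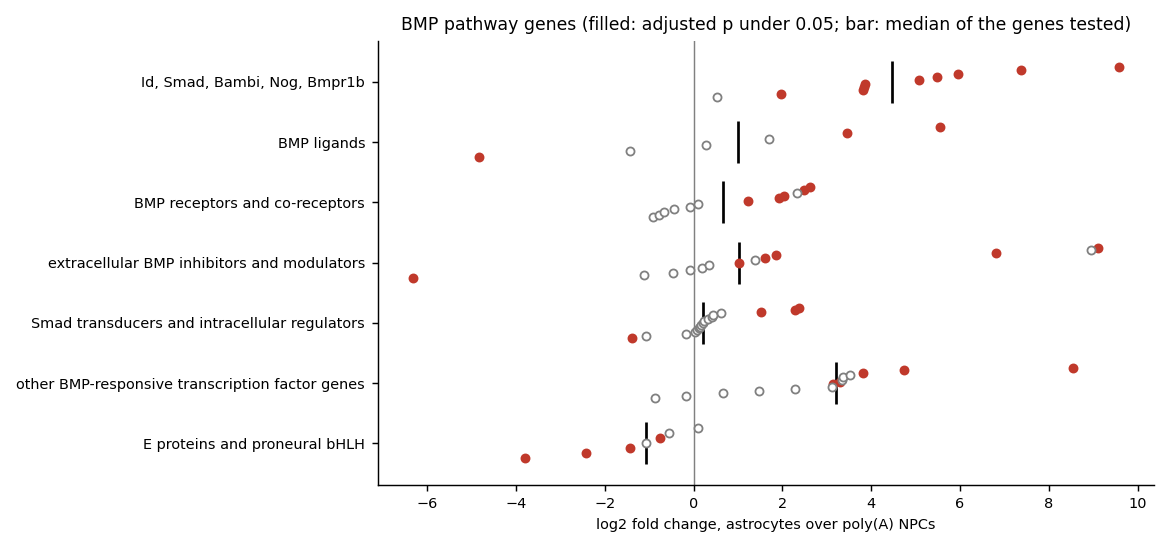
Log2 fold change of astrocytes over poly(A) NPCs for the genes of each pathway list, filled where the adjusted p was under 0.05, with a bar at the median of the genes tested. The 10 genes described here have a median of 4.47, the other pathway lists shown between -1.08 and 3.22.

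The 5 genes whose levels followed the mean of Id1, Id2 and Id3 most closely over the 8 poly(A) libraries, among 11277 genes with at least 5 CPM on average, were Zfp672 (r = 0.989), Chml (0.986), Pex11a (0.984), Clip2 (0.984) and Gadd45b (0.982). The r is Pearson's on log2(CPM + 1) and is a description, since 8 libraries of 2 cell states give a large r to any gene that separates the states. Of the 5, Gadd45b, a stress and growth arrest gene, had the largest log2 fold change, 6.23 (SE 0.48, adjusted p = 0.000119). It had 43.8 CPM in G4 and 119 CPM in mE6, the lowest and highest astrocyte clones, as for Id1 and Id2. The gene was picked for following the Id genes over these same libraries, so this shared order is no separate result.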

How the data were processed

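The authors aligned reads to a SNP-masked mouse genome (GRCm38) with TopHat2 (2.1.0) and Bowtie2, split them by allele and ran featureCounts (1.5.1) on the read pairs. The deposited files hold raw counts of Cast reads, 129 reads and all reads, and an allelic ratio given as a fraction by the authors, which was recomputed here. No annotation version is given in the sources used here. Positions and promoters came from RefSeq (GRCm38.p6).

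All reads, and Cast and 129 reads with all-read library sizes, were tested with edgeR 4.0.16 (quasi-likelihood, TMM, expression filter) in R 4.3.3. For ratios, both libraries of a Ch clone were added up. DESeq2 1.42.0, other scalings and filters, sex, preparation, title code and leaving out each clone were alternatives. The all-read edgeR fit, the test of the allelic difference and the permutation test were checked on simulated data. The simulated alleles held no clone with unbalanced regions. Each clone gave 1 poly(A) library, so p-values measure the spread between clones. The genes, lists and tests were chosen with earlier results of these data known. Genes named were the 10 genes, up to 4 called genes per list with the largest change, listed markers and the 5 genes of highest r; Smad1, Smad4, Bmp4, Hey1 and Tcf4 were added for context after their values were seen.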

Additional observations from a re-analysis of the deposited data

Results flagged for a closer look

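In groups of 4 to 10 clones, the highest or lowest value was examined by Dixon's test for 35 combinations of a gene, a measure and a group, of which chance flags about 1 in 20, and 4 stood apart. In astrocytes the Cast percentage of Id2 in G4 was 30.05%, below the other 4 clones, and that of Smad7 in G4 was 61.72%, above them. The Id4 level of G4 was 149.3 CPM, the highest of the 5 astrocyte clones. Among the ribosomal RNA-depleted NPC clones the Cast percentage of Id2 in Ch3 was 29.85%, against 100% in the other 3 clones.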

How the results depend on the processing

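No paired analysis was possible because no clone had both an astrocyte and a poly(A) NPC library here, and the labels give these clones no replicate numbers. Over all genes, 4644 were called with all reads, and 12036 against the ribosomal RNA-depleted clones, where preparation also differed. Leaving out each clone gave 2269 to 4849 calls for all reads (2667, 2269 and 3030 without F5, mG2 and mG6, which were the lowest values for Cast and 129 reads too), 1231 to 2706 for Cast reads (2629 with all clones), 1423 to 3294 for 129 reads (3016) and 2 to 58 for the allelic difference (59, lowest without F5). Leaving out both G4 and mG2, an alternative chosen after seeing the data, gave 1501, 821, 803 and 3. The number of the 10 genes called was 8 to 9 in every all-read alternative run, DESeq2 included, and 6 to 8 for Cast reads and 8 to 9 for 129 reads. Beside Id4, leaving out 1 clone moved the log2 fold change of a called gene over 1.5-fold for Id3 (2.58 without mG2) and Smad9 (5.68 without F5), both called. The 129 call of Bambi was lost without G4 and mG2 (adjusted p = 0.0596). Of the Cast percentages, 3 of the 6 genes had an unadjusted p under 0.05, and 0 to 0 without any single clone, where fewer clones allow no smaller p than 0.0571.

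Leaving out each clone, the log2 fold change of Bmpr1b ran from -0.23 (without G4) to 0.96 for all reads, from -0.11 (without G4) to 1.03 for Cast reads and from -0.063 (without clone 129; -0.054 without G4) to 0.73 for 129 reads, with none called. It was -0.53 for all reads with male clones, and its allelic difference -0.030 without G4 and mG2. The allelic difference of Smad7 turned to -0.090 without G4 and mG2, and its Cast percentage difference to -1.49 points. That of Id2 turned to -21.3 points against all 7 NPC clones, 3 of which were at 100%. The cause of the other turns was not tested. The small share of allele-specific reads (2.15% in the poly(A) libraries) limited the allelic ratios of Id3. Few reads limited those of Id4, Smad6, Smad9 and Nog in NPCs, where at least 1 poly(A) clone had fewer than 20 allele-specific reads for each.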
